A study of Mus musculus with 4 samples.

Results

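The genes described here are 44 genes that copy the DNA of the cell and supply that work in S phase. They load and start the replicative helicase, coat single-stranded DNA, clamp and extend the new strands, join Okazaki fragments, make deoxynucleotides and restore chromatin behind the fork. They were chosen by function, by name, from a fixed list, with earlier results of these data known. Every probe set annotated with exactly 1 of those symbols was taken. That gave 78 probe sets of the 22626 that are not controls, for 42 of the 44 genes; Gins2 and Chaf1a had none with their symbol alone. Of the 78 probe sets, 61 were called present on at least 2 of the 4 arrays and were tested, and they covered 36 genes.

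RNA came from mouse embryonic fibroblasts, cells grown out of mouse embryos, that had been infected with the retroviral vector pBabePuro, which carries a puromycin resistance gene. In the 2 mTert samples the vector carried mTert, the catalytic subunit of mouse telomerase, and in the 2 control samples it was empty, so all 4 samples share the viral infection. Each sample was read on 1 Affymetrix MOE430A array. Embryo strain, cell passage and any separate culturing of the samples within a group are unknown here. The p-values rest on array-to-array spread, and how much of that spread is technical was not tested. It included macrophage marker signal that was far higher on the array numbered 2 in each group, with values given below.

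Signals are linear values in arbitrary units, scaled to a common trimmed mean, and differences are mTert minus control on the log2 scale. The recorded amount of labelled cRNA was 15 µg for each mTert array, 5 µg for control 1 and 15 µg for control 2. Between 51.6% and 54.4% of probe sets were called present per array. Tert itself had signals of 1164.5 and 845.4 on the mTert arrays, both called present, against 128.0 and 84.7 on the control arrays, both called absent. The ratio of their geometric means was 9.53, a lower bound since the control signals were not above background. Fibroblast markers matched the label, with 10 of 10 called present on every array. Of 12 macrophage markers on the array, 8 and 11 were called present on mTert 1 and mTert 2, and 8 and 11 on control 1 and control 2. Their summed signal was 4004 and 17516 on the mTert arrays and 3662 and 16595 on the control arrays, so it differed between arrays numbered 2 and 1 and hardly between the groups.

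Replication begins when the origin recognition complex and Cdc6 and Cdt1 load the Mcm helicase onto DNA in G1, a step called licensing, which geminin restrains after S phase has begun. Cdc45 and the GINS complex then turn the loaded ring into an active helicase, RPA covers the exposed strand, and the RFC clamp loader places the PCNA ring that holds the polymerases. Most of these genes are transcribed at the G1 to S transition under E2F factors, and in cultured fibroblasts their RNA follows the share of cells that are cycling. In bulk RNA, fewer cells in S phase and less of the transcript per cell cannot be told apart.

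The E2F-type letters in the promoters are a feature that the choice of genes did not use. In RefSeq windows of 300 bases (250 before and 50 after a start site, build GRCm38.p6), the letters TTTCCCGC, TTTGGCGC, TTCCCGCC and TTGGCGCC were searched on both strands; some of these overlap one another, as TTTCCCGC and TTCCCGCC do where they share 7 letters. Of the 37 replication genes with a window, 18 (48.6%) held at least 1 of them, compared with 1174 of all 27025 genes in the table (4.34%), 975 of 17491 protein-coding genes (5.57%) and 506 of 6050 genes tested on these arrays (8.36%). The share was 4 of 7 helicase genes, 3 of 6 licensing genes, 4 of 7 polymerase genes, 3 of 5 clamp genes and 3 of 5 chromatin genes, against 1 of 4 nucleotide genes and 0 of 3 RPA genes. The windows shown are those of the 6 genes with the smallest limma p among the genes described in full that held a match. They run 5′ to 3′ on the strand of the gene, and capitals mark matches that lie wholly inside the stretch shown. Where the match lies after the start site, 30 bases at it are given, and otherwise the 250 bases before the start. The Mcm3 window held 5 matches, of which 2 lie wholly inside its 30 bases and are marked.
Mcm3, chr1:20820271-20820300, minus strand: ttccgtGGCGGGAAAacttgggaagttttg
Rfc4, chr16:23127697-23127726, minus strand: ttctgtGGCGGGAAccgcggtgccaggggg
Mcm7, chr5:138171884-138172133, minus strand: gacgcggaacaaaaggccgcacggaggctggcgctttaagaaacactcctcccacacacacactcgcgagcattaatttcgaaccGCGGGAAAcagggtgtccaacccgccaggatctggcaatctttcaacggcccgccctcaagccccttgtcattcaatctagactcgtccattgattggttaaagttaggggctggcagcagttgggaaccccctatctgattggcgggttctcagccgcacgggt
Uhrf1, chr17:56303087-56303336, plus strand: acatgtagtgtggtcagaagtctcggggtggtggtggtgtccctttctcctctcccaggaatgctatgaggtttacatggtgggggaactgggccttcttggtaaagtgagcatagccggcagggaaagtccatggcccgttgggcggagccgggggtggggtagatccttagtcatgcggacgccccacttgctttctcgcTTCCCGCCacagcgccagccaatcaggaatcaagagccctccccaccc
Rfc3, chr5:151651179-151651208, minus strand: GCGGGAAAactctactgtctaagcggcggg
Cdt1, chr8:122568026-122568055, plus strand: ggaatccgcgggaactaccttTTTGGCGCC
A match is a run of letters and not a shown binding site. In the array comparison below, the 16 tested genes with a match had a median log2 difference of 0.009, and the 17 tested genes with a window and no match 0.034.

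The comparison of mTert with control arrays asks whether the RNA of the replication machinery differs in fibroblasts that express the telomerase subunit. As a whole it differed little. Over the 36 tested genes, each read by its brightest tested probe set, the median log2 difference was 0.012 (quartiles -0.065 and 0.151), against 0.008 (quartiles -0.081 and 0.105) over all 7387 genes tested. In sign 21 genes were higher and 15 lower, or 21 of 36 where 52.5% of all genes were higher. The sign balance depended on the scaling and on single arrays. It was 16 higher and 20 lower after quantile normalization, where the median was -0.003. Without mTert 1 it was 29 and 7, and without mTert 2 it was 15 and 21. These runs chose the brightest probe set again. With the probe sets of the main run kept, the balance was 30 and 6 without mTert 1. Over single probe sets 34 of 61 were higher, against 51.8% of all probe sets tested. No member probe set passed limma at an adjusted p of 0.05 over all 12396 probe sets tested. Of the members 0 were called higher and 0 lower, and of all probe sets 0.0% were called in each direction. Tert, the introduced gene, did not pass either in this main run, at an unadjusted limma p of 1.52e-05 and a limma adjusted p of 0.188. It did pass with the replicate number as a block, at a limma adjusted p of 9.62e-08, where 0 member probe sets were called. The absence of calls in the main run therefore does not show that the members were unchanged. At an unadjusted limma p under 0.05 there were 2 of 61 member probe sets, against 2.11% of all probe sets. A single gene, Rpa2, differed by 1.5-fold or more, by 1 of its 2 tested probe sets, against 1.1% of all genes and 1.26% of all probe sets.

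**Figure D1:**
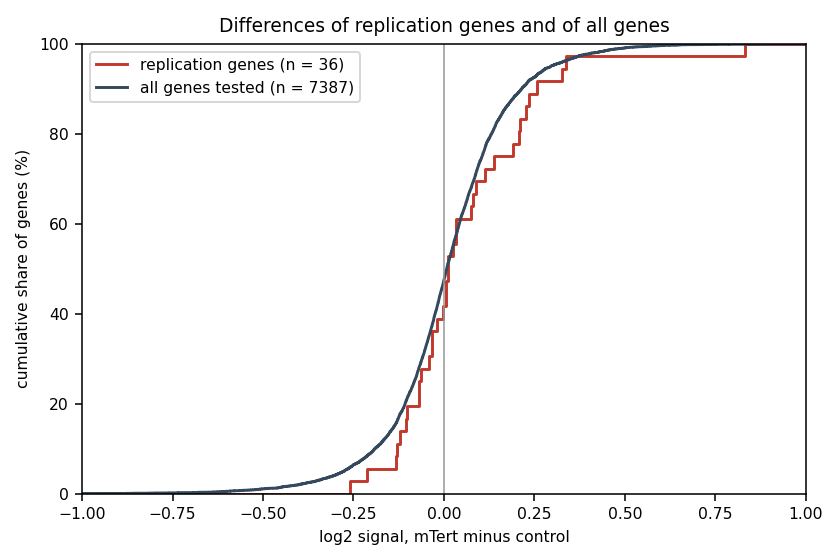
Cumulative share of genes (%) by log2 difference between mTert and control arrays, for the 36 replication genes and for all 7387 genes tested, each by its brightest tested probe set; the axis is cut at -1 and 1. Both curves cross 50% near 0 (medians 0.012 and 0.008), and the step at 0.83 is Rpa2.

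The size of the difference could be bounded within 1.5-fold for part of the genes. The 95% interval of limma had a median half-width of 0.40 on the log2 scale over the 36 genes. For 19 of them (52.8%) the whole interval lay within 1.5-fold in either direction, against 65.0% of all genes tested; these intervals are not adjusted for the number of genes. The median absolute difference between the groups was 0.095. Between the 2 arrays of one group it was 0.181 within mTert and 0.186 within control. All genes tested gave 0.094, 0.166 and 0.161 in that order. A difference between means of 2 arrays also varies less by construction than one between single arrays. In 7 of 36 genes (19.4%), against 16.0% of all genes, the group difference exceeded the replicate difference in both groups. These were Rpa2, Mcm3, Pold2, Mcm10, Mcm7, Cdt1 and Rfc3.

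**Figure D2:**
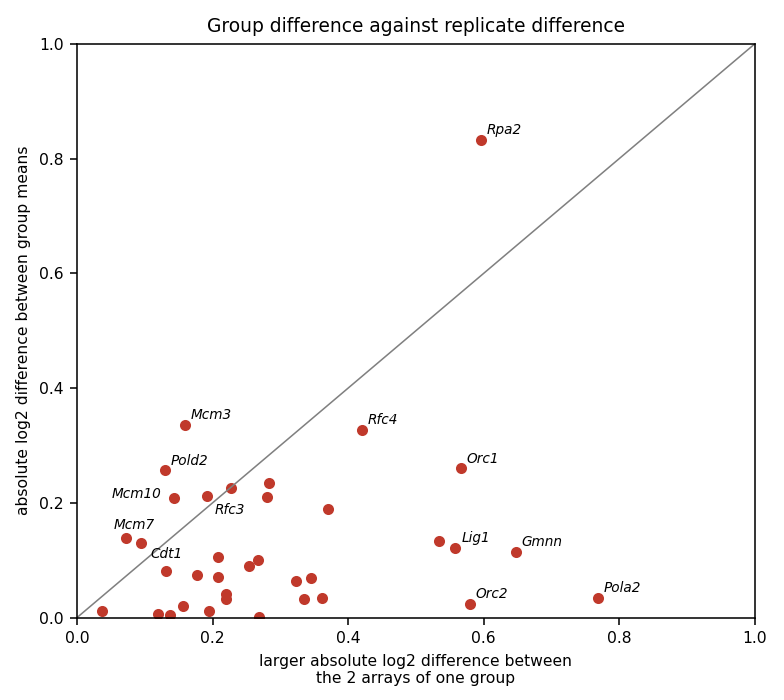
Absolute log2 difference between the mTert and control means (vertical) against the larger of the absolute log2 differences between the 2 arrays of one group (horizontal), 1 point per replication gene; the line marks equal values. Points above the line are the 7 genes named in the text. Pola2, Gmnn, Rpa2, Orc2, Orc1 and Lig1 lie far to the right, where the arrays of a group differ most.

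Both mTert arrays exceeded both control arrays in 8 of the 36 genes (Mcm2, Mcm3, Mcm7, Mcm10, Rpa2, Rfc4, Rfc5 and Pold2) and stayed under both in 2 (Cdt1 and Rfc3). Over all genes tested, 25.4% had groups that did not overlap, 13.8% higher and 11.7% lower, so the 10 of 36 members lie near the background in total. With 3 arrays groups overlap less by construction. The count was then 25 without control 1, 21 without control 2, 22 without mTert 1 and 23 without mTert 2, where all genes gave 61.1%, 63.5%, 63.5% and 62.8%.

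**Figure D3:**
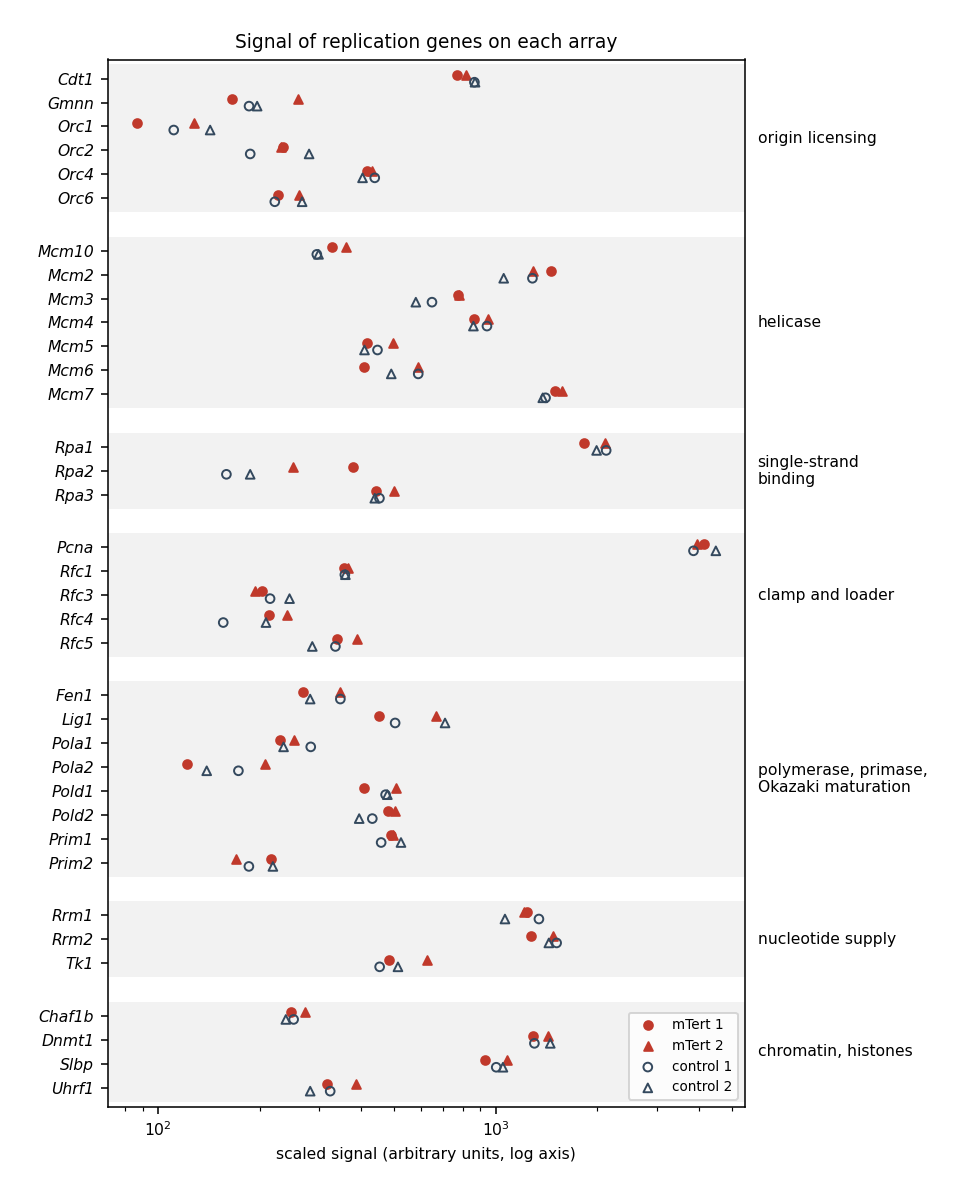
Scaled signal (arbitrary units, log axis) of the 36 tested replication genes on each array by role, with mTert arrays as filled and control arrays as open symbols; circles are arrays numbered 1 and triangles arrays numbered 2. The 4 symbols of a gene mostly intermix, and Rpa2 and Mcm3 are among the 8 genes whose mTert signals both lie above the controls.

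No helicase gene passed the test over all genes, and most had a positive difference. Of 7 tested genes 6 were higher in sign, with a median log2 difference of 0.138 (range -0.13 to 0.34), against 0.008 for all genes. At the level of probe sets 14 of 15 were higher in sign, and in 8 of the 15 both mTert signals lay above both control signals, against 13.4% of all probe sets. The median was 0.154 without control 1, 0.094 without control 2, 0.174 without mTert 1 and 0.102 without mTert 2. The genes higher in sign were 6, 5, 7 and 4 of 7 in that order, and 6 of 9 with no filter on calls, where the median was 0.090. Relative to each gene's mean, the helicase median was 0.033 on mTert 1 and 0.172 on mTert 2, and 0.019 on control 1 and -0.096 on control 2, so mTert 1 stood little above control 1. Several of these probe sets read the same gene, so they are not independent.

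Mcm3, a subunit of the hexameric ring that unwinds DNA, had signals of 771.9 and 776.2 on the mTert arrays and 647.7 and 580.2 on the control arrays. The mTert arrays lay close together and above both controls, with means of 774.1 ± 3.10 and 613.9 ± 47.8 (SD, n = 2 each). The log2 difference was 0.34 (SE 0.13, 95% interval 0.01 to 0.66), at an unadjusted limma p of 0.0439 and a limma adjusted p of 1.0. Its other tested probe sets stood at 0.31 and 0.24, so all 3 lay on the same side, though in the last of them mTert 1, at 588.3, did not clear control 1, at 590.3. A further pair of Mcm3 probe sets was called absent on all arrays.

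Mcm2, another ring subunit and a histone chaperone, had 1459.9 and 1288.2 on the mTert arrays, against 1284.9 and 1056.2 on the control arrays. mTert 2 lay barely above control 1, and the difference was 0.24 (SE 0.14, interval -0.12 to 0.59). Its second probe set was at 0.16, with overlapping groups. The value was 0.38 without control 1 and 0.09 without control 2.

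Mcm7, also a ring subunit, read 1494.0 and 1570.3 in mTert and 1405.1 and 1378.9 in control. The groups did not overlap, but the gap was small: 0.14 (SE 0.11, interval -0.12 to 0.40). Its other 3 probe sets ranged from 0.03 to 0.17. Mcm10, which helps start unwinding, had 326.6 and 360.5 in mTert and 295.4 and 298.8 in control, a difference of 0.21 (SE 0.16). The other ring subunits overlapped between the groups by their brightest probe sets: Mcm4 was at 0.00 (interval -0.31 to 0.32), Mcm5 at 0.09 (interval -0.31 to 0.49) and Mcm6 at -0.13 (interval -0.66 to 0.40). The dimmer probe sets of Mcm4 and Mcm6, at 0.08 and 0.20, had both mTert signals above both controls, so for Mcm6 the sign depends on the probe set. The probe sets used for Mcm2, Mcm3 and Mcm7 end in _s_at, a mark of probes shared by several transcripts. With such probe sets and those ending in _x_at left out, the helicase median was 0.112.

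Cdc45, the partner that activates the ring, was called present on mTert 2 alone, with signals of 109.8 and 164.5 in mTert and 202.0 and 153.3 in control. Gins1, a GINS subunit, was called absent on all arrays, with signals between 120.8 and 153.3. Neither was tested.

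The licensing genes showed no common direction, with 3 of 6 tested genes higher and 3 lower in sign and a median of 0.002 (range -0.26 to 0.11). After quantile normalization 1 was higher and 5 lower, without mTert 1 the split was 5 and 1, and without mTert 2 it was 1 and 5. Cdt1, which brings the helicase to the origin, had 766.6 and 818.0 on the mTert arrays and 865.0 and 868.7 on the control arrays. Both mTert signals were lower, by a small margin: -0.13 (SE 0.12, interval -0.43 to 0.17), and its second probe set stood at -0.01 with overlapping groups. Gmnn, the gene of geminin, which binds and holds back Cdt1, had 165.4 and 259.0 in mTert and 186.0 and 196.6 in control. The mTert arrays lay on either side of both controls, and the difference was 0.11 (SE 0.26, interval -0.52 to 0.75).

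Orc1, the largest origin recognition subunit, had 86.5 and 128.1 in mTert and 111.3 and 142.7 in control. The lower array was numbered 1 in each group, and the difference of -0.26 (SE 0.29, interval -0.97 to 0.45) was smaller than the gap between arrays of a group. The other origin recognition subunits stood at 0.02 for Orc2, 0.01 for Orc4 and -0.00 for Orc6, and the other probe sets of Orc2 and Orc4 lay between -0.15 and 0.07. Cdc6, the loading ATPase, was called absent on all 4 arrays, at 54.3 and 92.5 in mTert and 103.3 and 60.1 in control.

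Among the single-strand binding proteins, Rpa2 had the largest difference of all 36 genes and the smallest p, by its brightest probe set alone. Rpa2 is the middle subunit of RPA and the one that kinases modify after replication stress. Its probe set 1454011_a_at had signals of 378.4 and 250.4 on the mTert arrays, against 159.4 and 187.5 on the control arrays. Both mTert signals were above both controls, with means of 314.4 ± 90.5 and 173.5 ± 19.8 (SD, n = 2 each). The log2 difference was 0.83 (SE 0.25, interval 0.22 to 1.44), or 1.78-fold, at an unadjusted limma p of 0.0155 and a limma adjusted p of 1.0, so it did not pass over all probe sets.

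The second Rpa2 probe set, 1416433_at, did not show that difference. It read 189.6 and 224.7 in mTert and 251.1 and 206.4 in control, with the groups overlapping, a difference of -0.14 (SE 0.21, interval -0.64 to 0.36) and a present call on mTert 2 and control 1 alone. The 2 probe sets stood 0.97 apart on the log2 scale, the widest gap within any of the 18 replication genes that had several tested probe sets, where the median gap was 0.13. The value of 0.83 also leaned on mTert 1: it was 1.13 without mTert 2 and 0.53 without mTert 1. On the control arrays 1416433_at was the brighter, with a mean of 228.8 against 173.5 for 1454011_a_at. The raised mTert signals therefore decided which of them was read for the gene, so the choice was not independent of the comparison. The other RPA subunits had overlapping groups. Rpa1, the large subunit that holds most of the DNA contact, had 1822.5 and 2105.5 in mTert and 2124.6 and 1990.2 in control, at -0.07 (SE 0.12, interval -0.35 to 0.21), with its second probe set at -0.09. Rpa3, the small subunit, was at 0.07 (SE 0.15), with 441.2 and 498.7 in mTert and 452.7 and 438.5 in control.

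**Figure D4:**
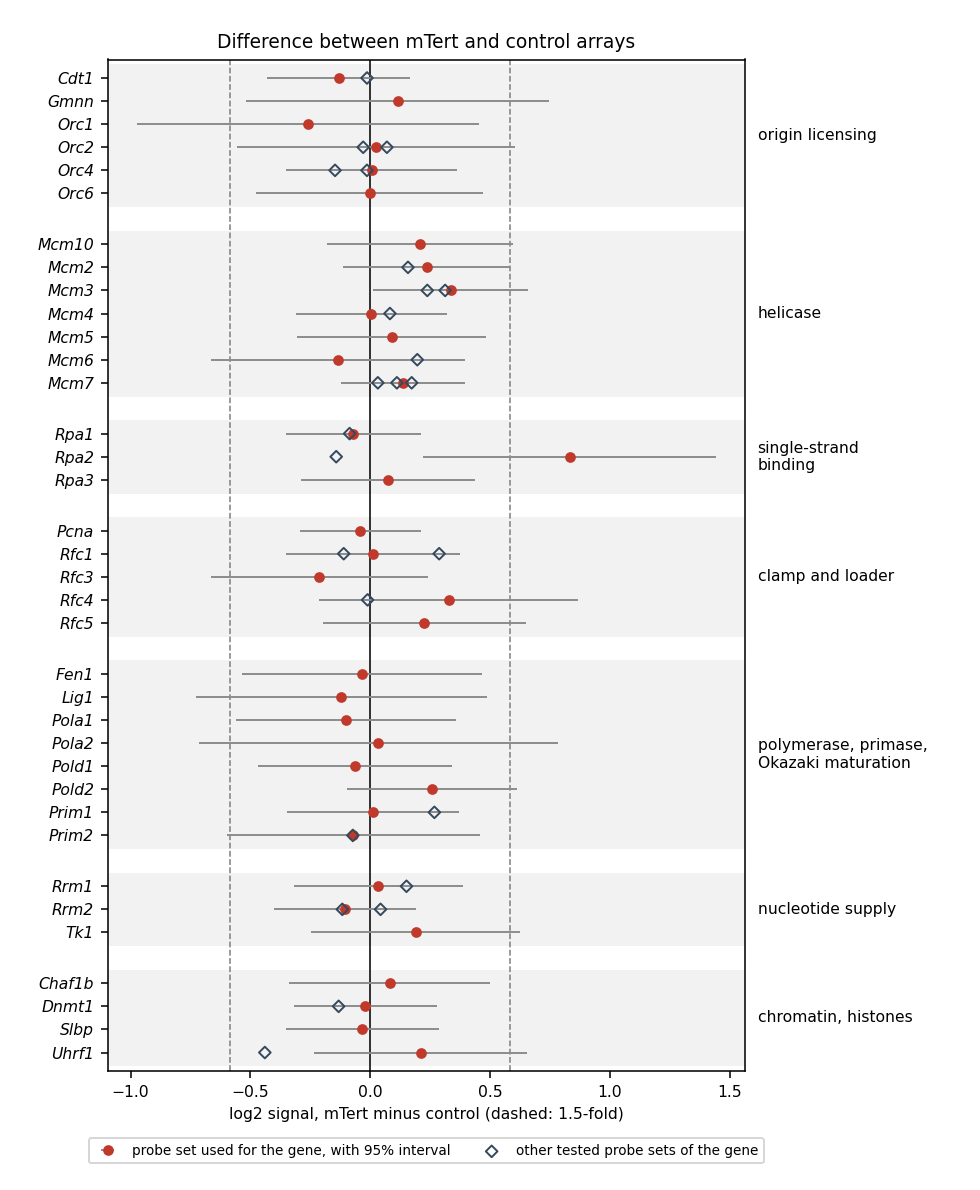
Log2 difference between mTert and control arrays for each tested replication gene by role: filled points with bars are the brightest probe set and its 95% limma interval, open diamonds the gene's other tested probe sets, and dashed lines mark 1.5-fold. Most intervals cross 0; those of Rpa2 and Mcm3 lie above it, and the second probe sets of Rpa2 and Uhrf1 lie on the other side of 0 from their first.

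The sliding clamp and its loader lay on both sides. Pcna, the ring that tethers polymerases to DNA, had 4145.5 and 3938.1 on the mTert arrays and 3853.3 and 4488.1 on the control arrays. The mTert signals lay between the control signals, and the difference was -0.04 (SE 0.10, interval -0.29 to 0.21). This is the tightest interval among the 36 genes and leaves out a change of 1.5-fold in either direction. The 4 tested loader genes had no shared sign. Rfc4 had 212.6 and 241.3 in mTert and 156.0 and 208.8 in control, with control 1 the low array, at 0.33 (SE 0.22, interval -0.21 to 0.87), while its second probe set was at -0.01.

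Rfc5, another small loader subunit, had 338.8 and 387.9 in mTert and 335.3 and 286.4 in control, at 0.23 (SE 0.17, interval -0.20 to 0.65). mTert 1 and control 1 were nearly equal there. Rfc3 leaned the other way, with 202.7 and 193.7 in mTert and 214.7 and 245.2 in control, at -0.21 (SE 0.19, interval -0.66 to 0.24). The large subunit Rfc1 was at 0.01 by its brightest probe set and at -0.11 and 0.29 by the others. Rfc2 was called absent on every array although its signals ran from 659.3 to 798.7, and it was not tested.

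The polymerase, primase and Okazaki fragment genes were centred just below 0, with 3 of 8 tested genes higher and 5 lower in sign and a median of -0.049 (range -0.12 to 0.26). After quantile normalization Pola2 and Prim1, both within 0.03 of 0, also changed to the lower side. Pold2, an accessory subunit of the lagging-strand polymerase delta, stood apart from the rest of the group, with 480.9 and 504.4 in mTert and 431.2 and 394.3 in control. The groups did not overlap, and the difference was 0.26 (SE 0.15, interval -0.10 to 0.61). Pold1, the catalytic subunit of the same enzyme, did not share it: 406.2 and 508.4 in mTert and 472.1 and 477.8 in control, at -0.06 (SE 0.17).

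Pola1, the catalytic subunit of polymerase alpha, which starts each fragment together with primase, had 229.0 and 253.2 in mTert and 283.3 and 235.4 in control, at -0.10 (SE 0.19, interval -0.56 to 0.36). Lig1, the ligase that seals the fragments, had 452.5 and 666.4 in mTert and 503.8 and 708.1 in control. Its arrays numbered 2 were higher in each group, by 0.56 within mTert and 0.49 within control, and the group difference of -0.12 (SE 0.25, interval -0.73 to 0.49) was much smaller. Fen1, the flap nuclease, was at -0.03, and the accessory subunit Pola2 at 0.03. The primase subunits stood at 0.01 for Prim1 and -0.07 for Prim2. Pole, the leading-strand polymerase, was called absent on all arrays, with signals between 30.8 and 66.3.

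The nucleotide supply genes did not separate the groups: 2 of 3 tested genes were higher and 1 lower in sign, with a median of 0.033. Tk1, the thymidine kinase of the salvage route, had 484.0 and 625.6 in mTert and 453.3 and 513.6 in control. mTert 1 lay between the controls, and the difference was 0.19 (SE 0.18, interval -0.25 to 0.63). Rrm2, the regulated small subunit of ribonucleotide reductase, had 1276.2 and 1473.4 in mTert and 1515.5 and 1437.0 in control, at -0.11 (SE 0.12, interval -0.40 to 0.19). Its other probe sets were at 0.04 and -0.12, and in the last of these both mTert arrays read under both controls.

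Rrm1, the large subunit of the same enzyme, had 1236.1 and 1211.7 in mTert, between the 1343.0 and 1065.3 of control, at 0.03 (SE 0.14, interval -0.32 to 0.39). Its second probe set was at 0.15. Tyms, which makes thymidylate, was called absent by all 3 of its probe sets on every array, with signals between 3.7 and 68.5.

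The chromatin genes were level between the groups by their brightest probe sets, with a median of 0.031 and differences from -0.03 to 0.21. Dnmt1, which copies DNA methylation onto the new strand, had 1287.0 and 1428.5 in mTert and 1302.3 and 1451.1 in control, nearly matching by array number, at -0.02 (SE 0.12, interval -0.32 to 0.28). Slbp, which binds the end of histone messenger RNAs, was at -0.03 (SE 0.13), with 931.1 and 1083.9 in mTert and 1003.9 and 1050.7 in control. Chaf1b, a subunit of the histone chaperone CAF-1, was at 0.08 (SE 0.17), with 248.3 and 271.8 in mTert and 252.1 and 239.1 in control.

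Uhrf1, which recruits Dnmt1 to hemimethylated DNA, gave opposite signs by its probe sets. The brighter had 317.3 and 385.4 in mTert and 323.6 and 282.3 in control, at 0.21 (SE 0.18, interval -0.23 to 0.65). The dimmer, 1415811_at, had 154.0 and 164.6 in mTert and 206.4 and 225.8 in control, with both mTert signals below both controls, at -0.44 (SE 0.19, interval -0.90 to 0.03, unadjusted limma p of 0.0601 and limma adjusted p of 1.0). Across the 18 genes with several tested probe sets, 6 had all of them higher, 4 all lower and 8 had both signs.

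The arrays of one group differed more in these genes than the group means did, as was so over all genes tested. Relative to each gene's mean over the 4 arrays, the median of the 36 genes was -0.059 on mTert 1 and 0.105 on mTert 2, and -0.011 on control 1 and -0.039 on control 2. mTert 2 was the highest array and mTert 1 the lowest. Without mTert 1 the median difference from control was 0.100 (0.118 with the probe sets of the main run kept), and without mTert 2 it was -0.016. In 13 genes the array numbered 2 was higher in both groups and in 2 it was lower in both, or 36.1% and 5.56%, where all genes tested gave 28.2% and 24.6%. The macrophage markers were also higher on arrays numbered 2, and their part in this was not tested.

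Another 51 genes of replication and S phase entry were listed by function, with earlier results of these data known. Of these, 39 were tested and 0 passed limma in either direction over all probe sets. Leaving aside Tert, 22 of 38 were higher and 16 lower in sign, with a median of 0.009. In 2 of the 38 both mTert signals lay above both controls and in 6 below, against 13.8% and 11.7% of all genes tested. The smallest p after Tert belonged to Dtl, a substrate adaptor of the ligase that destroys Cdt1, with 150.0 and 230.9 in mTert and 246.0 and 276.9 in control, at -0.49 (SE 0.25, interval -1.11 to 0.13). It was called present on mTert 2 and control 2 alone. E2f8, a repressor of the E2F family, had 92.4 and 103.9 in mTert and 125.1 and 140.3 in control, at -0.44 (SE 0.23, interval -1.0 to 0.13).

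Wdhd1, which links the helicase to polymerase alpha, lay on the other side at 0.29 (SE 0.18), with 292.7 and 252.8 in mTert and 209.4 and 235.2 in control. Tipin, a fork protection factor, was at -0.22 (SE 0.15), with 553.7 and 493.3 in mTert and 564.7 and 660.1 in control. Top2a, the topoisomerase that untangles sister DNA and marks dividing cells, was at 0.15 (SE 0.13), with 921.8 and 1058.7 in mTert and 853.9 and 926.8 in control. None of these reached an adjusted limma p below 1.0. The groups did not overlap for Dtl, E2f8, Wdhd1 and Tipin, but genes picked for a small p favour that. Over the 38 genes without Tert the count was 8, against 25.4% of all genes tested.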

How the data were processed

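Signals of 4 MOE430A arrays were used as deposited. Per the file headers, the authors gave each probe set a linear intensity, a present, marginal or absent call and a detection p-value; the sources used here do not name the summarising software. The deposited series table held the same intensities (largest difference 0). Each array was scaled to a common trimmed mean (2% left out at each end) and taken to log2; 1 signal at 0 was set to its array's lowest present signal. The 64 control probe sets and probe sets present on fewer than 2 of 4 arrays were left out, leaving 12396. Symbols came from GEO's platform annotation; for a gene the tested probe set with the highest mean was used. mTert was set against control by limma 3.58.1 (R 4.3.3), using lmFit and eBayes with an intensity trend and no replicate term. Benjamini-Hochberg adjustment ran over all 12396. The step was tested on simulated data with 200 planted differences per run. It recovered 12.6% of those of 0.5 on the log2 scale, 64.2% of those of 1 and 98% of those of 3, with 7.3 false calls per run. The simulated noise was independent between arrays, and its spread depended on signal level alone. Same-numbered arrays here deviated together, and Tert, at 3.25, did not pass in the main run. The recovered shares therefore need not hold for these arrays. A permutation of 2 against 2 arrays allows no two-sided p under 0.333. Per-array values were given for the 3 genes per role with the smallest p, the brightest gene per role, and 5 pathway genes with Tert. Mcm10, Pold1, the second Uhrf1 probe set and genes without a tested probe set were added after their values were seen. The members and lists were chosen with earlier results of these data known. The number of arrays limits the precision.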

Additional observations from a re-analysis of the deposited data

How the results depend on the processing

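Replication genes gave 0 called probe sets under every alternative run: quantile normalization, no filter on calls, presence on all 4 arrays, an added 50 before log2, no intensity trend, the deposited series table, a replicate block and each array left out. Over all probe sets, limma called 18 with the replicate number as a block, against 0 without it, at unadjusted counts of 488 and 261. With that block Tert had a limma adjusted p of 9.62e-08 and Rpa2 one of 0.476. Same-numbered arrays deviated together (r = 0.373 across probe sets, the same for both pairs by construction), but with 2 pairs the numbers do not establish a pairing.

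With the mean of all probe sets per gene, the clamp median was 0.063 and the chromatin median -0.054, against 0.012 and 0.031; the cause is the weight of second probe sets. With 1 array left out, medians ranged from -0.016 to 0.100 for all 36 genes, -0.142 to 0.039 for licensing, 0.094 to 0.174 for helicase, -0.014 to 0.097 for single-strand binding, -0.005 to 0.068 for the clamp group, -0.194 to 0.122 for polymerases, -0.134 to 0.100 for nucleotide supply and -0.039 to 0.112 for chromatin. Non-overlapping genes ranged from 21 to 25. For these medians and counts with 1 array left out, the brightest probe set was chosen again in each run. The sign changes and ranges of single genes below keep the probe set of the main run. Of the 36 genes, 5 changed sign after quantile normalization (Orc2, Orc4, Pola2, Prim1 and Rfc1, each within 0.03 of 0) and 0 in the other settings that keep all arrays, where 34 could be read with presence on all 4 arrays. With 1 array left out, 4 to 10 of the 36 changed sign. Among the 28 genes described in full other than Tert, 10 did so, with ranges of -0.54 to 0.02 for Orc1, -0.21 to 0.44 for Gmnn, -0.17 to 0.03 for Rpa1, -0.01 to 0.16 for Rpa3, -0.15 to 0.07 for Pcna, -0.23 to 0.03 for Pola1, -0.40 to 0.16 for Lig1, -0.13 to 0.20 for Rrm1, -0.14 to 0.08 for Slbp and -0.10 to 0.06 for Dnmt1. None of these was called. The cause was not tested.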

Other observations

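A second Fen1 probe set, 1436454_x_at, was called absent on all 4 arrays, but its signal followed the array number, with 346.5 and 838.1 on the mTert arrays and 277.0 and 803.9 on the control arrays (number 1, then number 2, in each group). It was not tested. The tested Fen1 probe set did not share that order, with 269.5 and 346.2 on the mTert arrays and 346.8 and 282.2 on the control arrays.

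An absent call in these tables did not always go with a low signal. Rfc2 was called absent throughout with 798.7 and 659.3 on the mTert arrays and 710.4 and 713.5 on the control arrays, and so was the Mcm3 probe set 1426653_at with 352.2 and 339.1 on the mTert arrays and 325.7 and 350.5 on the control arrays.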
